A study of Mus musculus with 33 samples.

Results

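The regions described here are 1323 sites in growing C2C12 myoblasts at which a peak of Menin met a peak of MLL1 and a peak of Wdr5 but no peak of ING1 and no peak of LSD1. They were chosen from the 68259 Menin peaks on chromosomes 1 to 19 that were narrower than 5000 bp, out of 68934 Menin peaks on those chromosomes, by an overlap of 1 bp or more with each of the other pooled lists. They made up 1.94% of those Menin peaks and 34.2% of the 3864 sites where Menin, MLL1 and Wdr5 met. At the other 2541 sites of that kind (65.8%) an ING1 or LSD1 myoblast peak was also present: 1224 had ING1 alone, 222 had LSD1 alone and 1095 had both. Over all Menin peaks under the limit, 7.46% met MLL1, 23.5% met Wdr5, 8.67% met ING1 and 4.79% met LSD1 of myoblasts, and 90.2% met no peak of either ING1 or LSD1. Because these 5 myoblast lists chose the sites, their overlaps, and every value made from those lists or their replicates, are given as a description.

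Menin, MLL1 and Wdr5 are subunits of histone methyltransferase complexes that place methyl groups on lysine 4 of histone H3 (H3K4). MLL1 holds the catalytic SET domain, Wdr5 is a core subunit shared by all MLL family complexes, and Menin joins the MLL1 and MLL2 complexes and helps to bring them to chromatin. ING1 carries a PHD finger that reads trimethylated H3K4 and belongs to Sin3 histone deacetylase complexes, whose scaffold is Sin3A. LSD1 removes mono- and dimethyl groups from the same lysine, and MLL3 is the catalytic subunit of a related complex that is best known for placing monomethyl groups at enhancers.

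The series mapped these proteins by ChIP-seq, which sequences the DNA pulled down with a protein and lists the stretches where its fragments pile up as peaks. C2C12 is a mouse myoblast line. Myoblasts grew in medium with 10% fetal bovine serum, and myotubes were collected after 96 h, or 4 days, in 2% horse serum, a switch that makes confluent cells fuse into multinucleated muscle-like fibres. Menin (2 replicates), MLL1 (2 replicates), Wdr5 (3 replicates), LSD1 (1 sample) and MLL3 (1 sample) were mapped in unmodified growing myoblasts, and Sin3A (2 replicates) and LSD1 (1 sample) in unmodified myotubes, each with an antibody to the protein itself. ING1 was mapped in myoblasts (2 replicates) and myotubes (3 replicates) through a Flag tag, in cells infected with a retrovirus carrying tagged ING1 and selected with puromycin, so its peaks come from added protein in another line of C2C12 cells than those of the other factors. Chromatin was sonicated to an average of 250 bp. The source label of both MLL1 samples reads Menin while their antibody is given as MLL1, and they were taken as MLL1. Sin3A is placed in myoblasts by the series text and in myotubes by its sample labels, and was taken as a myotube factor. The lists hold no expression values, so the cell type could not be checked against marker genes. Whether replicates were separate cultures is not stated, so the spread between them may be technical.

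A deposited list gives the boundaries of each peak and nothing on its height, so the sequencing depth behind it is unknown and the absence of a peak means only that none was listed. On chromosomes 1 to 19 the lists ran from 4419 peaks for LSD1 in myoblasts to 208538 for MLL3. Replicates differed widely in length: 427 and 5496 peaks for ING1 in myoblasts, 2151, 2485 and 122 for ING1 in myotubes, 4098 and 460 for MLL1, and 9270 and 426 for Sin3A. Intervals given with shares are exact binomial (Clopper-Pearson) 95% intervals and cover counting error only. Coordinates are mm9, and regions are given by position because no gene annotation or genome of that build was used here.

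The 1323 sites were wider than Menin peaks in general and narrower than the Menin-MLL1-Wdr5 sites that also had ING1 or LSD1. Their median width was 1576 bp, with 10% of them under 485 bp, 10% over 3260 bp and extremes of 9 and 4944 bp. The median was 654 bp over all Menin peaks under the limit, and 2644 bp at the Menin-MLL1-Wdr5 sites with ING1 or LSD1. It was 784 bp at the 8731 Menin peaks that had Wdr5 but no MLL1, ING1 or LSD1, 853 bp at the 1071 that had MLL1 but no Wdr5, ING1 or LSD1, and 593 bp at the 50432 that had none of the 4. A wider peak meets other lists more often, so values within width classes, or weighted to the widths of the 1323 sites, are given where stated; the other values are not matched for width.

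MLL1 peaks covered the centre of the Menin peak at 51.7% of the sites and Wdr5 peaks at 71.4%. The centre of the MLL1 peak lay a median of 294 bp from the centre of the Menin peak, and that of the Wdr5 peak 324.5 bp, with 90% of the offsets within 830 and 932 bp. MLL1 peaks covered a median of 37.2% of the Menin peak and Wdr5 peaks 59.8%. At 1248 of the sites there was 1 MLL1 peak, and at 75 (5.67%) there were more, up to 3. For Wdr5 the counts were 1202 and 121 (9.15%), up to 4. The stretch shared by all 3 factors had a median of 420 bp and reached 100 bp at 1171 sites. At 82 sites (6.20%) the MLL1 and Wdr5 peaks both met the Menin peak without meeting each other inside it. At the sites with ING1 or LSD1 the shared stretch had a median of 718 bp and was lacking at 2.24%. From the other side, these sites held 1370 of the 8795 MLL1 peaks (15.6%) but 2.44% of the Wdr5 peaks.

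Few of the sites were backed by every replicate of the 3 factors that define them. Menin replicates 1 and 2 had a peak at 68.3% and 58.9% of the sites, MLL1 replicates 1 and 2 at 41.5% and 2.42%, and Wdr5 replicates 1, 2 and 3 at 37.9%, 18.4% and 18.6%. Both Menin replicates listed 671 sites (50.7%), both MLL1 replicates 29 and all 3 Wdr5 replicates 125. No MLL1 replicate listed 771 of the sites (58.3%), and no Wdr5 replicate listed 724 (54.7%). A peak in at least 1 replicate of each factor was present at 281 sites (21.2%), and 183 sites rested on the pooled lists alone, with a peak in none of the 7 replicate lists. The Menin-MLL1-Wdr5 sites with ING1 or LSD1 had a replicate peak of each factor at 45.1% and none at 13 of 2541. Over all 7 lists, 223 sites met 1 list, 297 met 2, 277 met 3, 178 met 4, 101 met 5, 58 met 6 and 6 met all 7.

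The 6 sites met by all 7 lists, the best supported of the set, were chr6:17642386-17645789, chr10:33669334-33672698, chr11:119250711-119253910, chr1:33775559-33778613, chr6:65727480-65730264 and chr10:85484379-85486942. They were 2564 to 3404 bp wide. At the first of them a single MLL1 peak and a single Wdr5 peak each covered 53.6% of the Menin peak. At the second MLL1 covered 20.6% and Wdr5 33.4%. All 6 had an ING1 peak in the pooled myotube list, which covered from 16.5% (chr1:33775559-33778613) to 36.0% (chr6:17642386-17645789) of the Menin peak, yet none had a peak in a single ING1 myotube replicate. Sin3A was listed in myotubes at 4 of the 6, in the pooled list and in replicate 1, and covered 28.4% to 37.7%. The exceptions were chr10:33669334-33672698, 57.5 kb from the nearest Sin3A peak, and chr6:65727480-65730264, 625 kb from it. The latter was also the only one of the 6 with MLL3 (42.4% covered). LSD1 was listed in myotubes at chr10:85484379-85486942 alone (19.9% covered). The first site, chr6:17642386-17645789, had a peak in ING1 myoblast replicate 2 that the pooled ING1 myoblast list did not hold.

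In myotubes, ING1, Sin3A and LSD1 were each listed at a minority of the sites. ING1 was listed at 346 of 1323 (26.2%, interval 23.8 to 28.6), against 10.0% of all Menin peaks under the limit. Sin3A was listed at 473 (35.8%, 33.2 to 38.4), against a background of 12.1%, and LSD1 at 161 (12.2%, 10.5 to 14.0), against 9.16%. MLL3, mapped in myoblasts, was listed at 298 (22.5%, 20.3 to 24.9), below its background of 28.8%. These backgrounds are not matched for width. Against all Menin peaks of the same width class, LSD1 was lower in each class, at 10.5% against 21.8% from 1632 to below 1983 bp. ING1 and Sin3A were higher below 1632 bp and lower from 1632 bp up. From 2313.5 to below 2632.8 bp they stood at 34.0% against 51.9% and 46.4% against 58.8%. Where a factor was listed it covered a median of 33.6% (ING1), 37.6% (Sin3A), 26.2% (LSD1) and 34.5% (MLL3) of the Menin peak. The sites were chosen for the lack of ING1 and LSD1 in myoblasts, so their presence in myotubes is no measure of a change between the states. ING1 and LSD1 were also mapped with the same antibodies in both states, whereas Sin3A and MLL3 come from antibodies the rule did not use.

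The comparison that bears on the choice is with the 2541 Menin-MLL1-Wdr5 sites that had ING1 or LSD1 in myoblasts. The groups were split by ING1 and LSD1 of myoblasts. A difference in the same proteins of myotubes may therefore follow from the choice, and its values are a description. All 4 factors were listed less often at the sites without ING1 or LSD1. At the sites with them the share was 83.4% for ING1 in myotubes, 89.6% for Sin3A, 51.6% for LSD1 in myotubes and 33.8% for MLL3. The odds ratios were 0.0705 for ING1, 0.0642 for Sin3A, 0.130 for LSD1 and 0.568 for MLL3. Within 10 classes of Menin peak width (Mantel-Haenszel) they were 0.1001, 0.0857, 0.191 and 0.766. Weighted to the widths of the 1323 sites, the sites with ING1 or LSD1 gave 75.5% for ING1, 86.2% for Sin3A, 41.8% for LSD1 and 26.3% for MLL3. The sites without ING1 or LSD1 had the lower share on 19 of 19 chromosomes for each of the 4 factors.

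**Figure D1:**
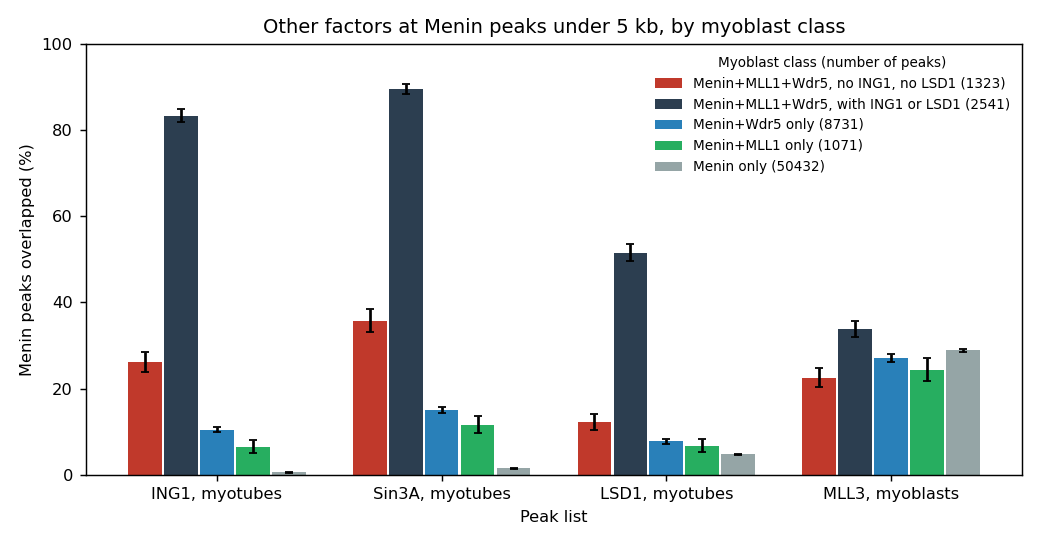
Share of Menin peaks under 5000 bp that overlapped a peak of each of 4 lists outside the rule (vertical axis, percent), for 5 classes of Menin peak by their myoblast overlaps; the classes named "only" lack ING1 and LSD1 too, and bars carry exact binomial 95% intervals. The sites without ING1 or LSD1 stand at 26.2%, 35.8% and 12.2% for ING1, Sin3A and LSD1 of myotubes, between the sites with ING1 or LSD1 and the Menin peaks with fewer partners, and at 22.5% for MLL3, the lowest of the 5 classes.

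The replicate lists showed the same direction, which for ING1 may likewise follow from the choice of sites. ING1 myotube replicates 1, 2 and 3 listed 2.87% (38 sites), 3.63% (48 sites) and 0% of the 1323 sites, against 25.2%, 29.7% and 1.14% of the sites with ING1 or LSD1. For the 0 of replicate 3, a limit of 3 counts in 1323 is 0.227%, and the exact interval reaches 0.278%. Their backgrounds over all Menin peaks were 2.47%, 2.87% and 0.129%. Those backgrounds include Menin peaks with ING1 in myoblasts and are not matched for width. In replicates 1 and 2, Menin peaks with Wdr5 but no MLL1, ING1 or LSD1 stood lower, at 1.34% and 1.47%. Those with MLL1 but no Wdr5, ING1 or LSD1 stood at 0.373% in both, and those with neither partner at 0.0218% and 0.0297%. The mean over the 3 replicates was 2.167% ± 1.91 (SD, n = 3) at the 1323 sites against 18.7% ± 15.4 at the sites with ING1 or LSD1. The difference of 16.5 percentage points ± 13.4 went the same way in 3 of 3 lists (exact sign-flip permutation over lists, two-sided p = 0.25, the smallest that 3 lists allow). Sin3A replicates 1 and 2 listed 26.5% (351 sites) and 0.378% (5 sites), against 83.9% and 5.04%, with backgrounds of 10.0% and 0.513%. The difference averaged 31.0 percentage points ± 37.2 and went the same way in 2 of 2 lists (exact sign-flip permutation, two-sided p = 0.5, the smallest that 2 lists allow). LSD1 and MLL3 had 1 list each and no replicate check.

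For ING1, Sin3A and LSD1 of myotubes, sites with ING1 alone and with LSD1 alone had similar shares, and sites with both had the highest. These classes follow the pooled lists. Of the 222 sites with LSD1 alone, 57 (25.7%) had a peak in ING1 myoblast replicate 2 and 1 (0.450%) in replicate 1. At sites with ING1 alone, LSD1 alone and both, ING1 in myotubes was listed at 78.8%, 78.4% and 89.6%. Sin3A was listed at 85.9%, 86.9% and 94.3%, and LSD1 in myotubes at 42.7%, 41.4% and 63.5%. MLL3 was listed at 27.5%, 32.9% and 41.1%. Weighted to the widths of the 1323 sites, the shares were 73.6%, 71.6% and 85.1% for ING1, 83.7%, 81.2% and 90.4% for Sin3A and 35.0%, 36.4% and 60.4% for LSD1, all above those of the sites with neither. For MLL3 they were 22.6%, 30.1% and 30.7%, against 22.5%, so at matched width the MLL3 share with ING1 alone was close to that with neither. The weighted values for LSD1 alone and for both rest on width classes with as few as 2 sites and 1 site.

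Among Menin peaks that lacked ING1 and LSD1 in myoblasts, the shares of ING1 and Sin3A were highest where MLL1 and Wdr5 were both present. At the widths of the 1323 sites, ING1 in myotubes was listed at 17.8% of Menin peaks with Wdr5 but no MLL1, at 7.44% of those with MLL1 but no Wdr5 and at 2.10% of those with neither, against 26.2% where all 3 met. The corresponding values for Sin3A were 24.2%, 14.2% and 5.40%, against 35.8%. For LSD1 in myotubes they were 12.3%, 9.29% and 10.6%, against 12.2%, so this factor hardly varied with the partners. For MLL3 they were 32.4%, 27.1% and 40.2%, against 22.5%: the share was highest at Menin peaks without either partner and lowest at the sites with both. Unmatched for width, the Menin peaks with Wdr5 but no MLL1 had ING1 in 1.34%, 1.47% and 0.0229% by myotube replicates 1, 2 and 3, against 2.87%, 3.63% and 0%, so replicate 3, with 2 such peaks, went the other way. The mean difference was 1.22 percentage points ± 1.12 (SD, n = 3), in the same direction in 2 of 3 lists (exact sign-flip permutation, two-sided p = 0.5, with 0.25 the smallest possible). For Sin3A the shares were 11.0% and 0.229% by replicates 1 and 2, against 26.5% and 0.378%, a mean difference of 7.83 points ± 10.9 in 2 of 2 lists (exact sign-flip permutation, two-sided p = 0.5, the smallest possible).

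Width changed the levels but not the order for ING1, Sin3A and LSD1. Among the narrowest class, below 808 bp, ING1 in myotubes was listed at 11.6% of 311 sites without ING1 or LSD1 and at 58.7% of 75 sites with them. In the widest class, from 4050 bp, the shares were 36.5% of 52 and 90.2% of 336. The sites without ING1 or LSD1 had the lower share in 10 of 10 width classes for ING1, Sin3A and LSD1 and in 9 of 10 for MLL3, where the exception was the class from 808 to below 1279 bp, at 27.4% against 17.4%. Sites with a myotube peak were themselves wider: a median of 2019.5 against 1377 bp for ING1, 1937 against 1301 bp for Sin3A and 2300 against 1486.5 bp for LSD1. For MLL3 the medians were 1804.5 and 1533 bp.

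**Figure D2:**
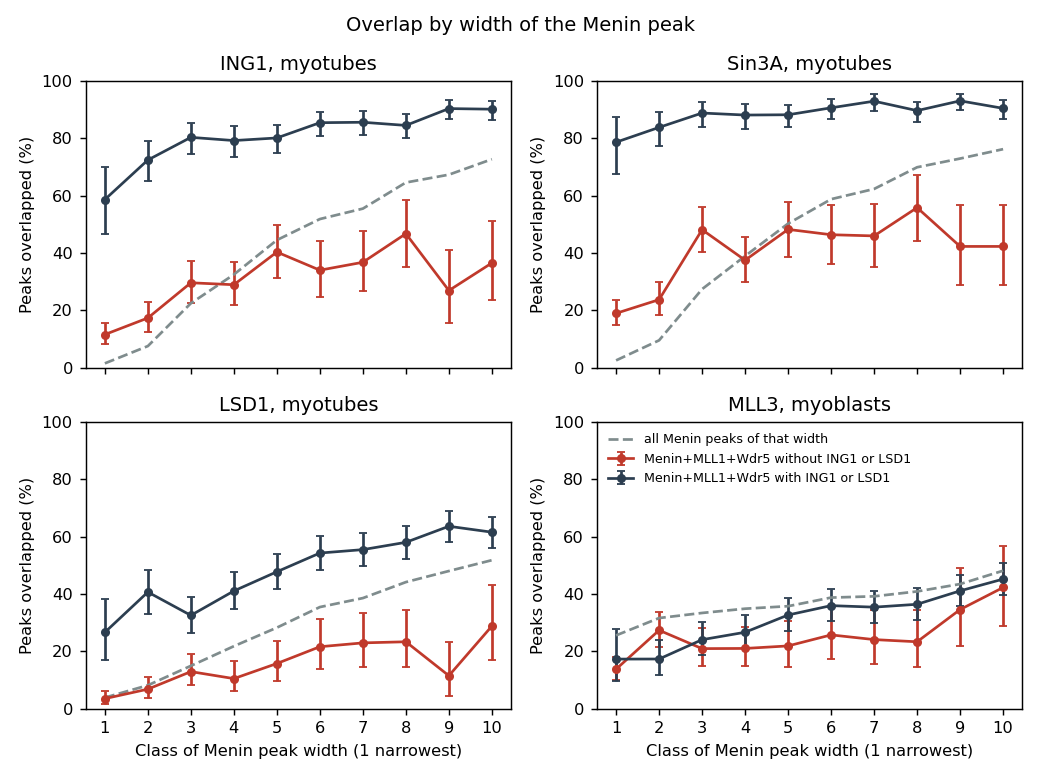
Share of Menin-MLL1-Wdr5 sites overlapped by each of the 4 lists (vertical axis, percent) in 10 classes of Menin peak width from narrow to wide, with exact binomial 95% intervals; the dashed line is the share over all Menin peaks of that width. For ING1, Sin3A and LSD1 the sites without ING1 or LSD1 lie below the sites with them in 10 of 10 classes, and the lines for MLL3 lie close together.

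ING1 and Sin3A were listed in myotubes at a larger share of the sites that more of the Menin, MLL1 and Wdr5 replicate lists held. These replicates belong to the factors that chose the sites, so the split by them is a description. ING1 in myotubes was listed at 6.01% of sites found in no replicate list, 7.62% of those in 1, 20.5% in 2, 27.4% in 3, 43.8% in 4, 50.5% in 5, 79.3% in 6 and 100% of the 6 sites in all 7. Sin3A ran from 9.84% and 17.9% through 30.3%, 36.5%, 55.6% and 73.3% to 81.0% at 6 lists and 66.7% at 7. LSD1 in myotubes read 2.19%, 5.83%, 12.5%, 12.6%, 18.5% and 17.8% at 0 to 5 lists, 34.5% at 6 and 16.7% at 7, and MLL3 stayed between 13.7% and 26.97%. Median width went from 615 bp at none to 3127.5 bp at 7. Comparing the 343 sites in 4 or more lists with the 980 in fewer, ING1 stood at 52.8% against 16.8%, an odds ratio of 5.52 and of 4.22 within width classes, higher on 19 of 19 chromosomes. Sin3A stood at 65.3% against 25.4% (odds ratio 5.53, within width 4.52, 19 of 19 chromosomes). LSD1 stood at 21.0% against 9.08% (2.66, within width 1.81, 15 of 19 chromosomes), and MLL3 at 24.8% against 21.7% (1.19, within width 1.01, 11 of 19 chromosomes). The sites with ING1 or LSD1 went the same way: with 4 or more lists ING1 stood at 88.1% against 73.4% (odds ratio within width 2.32) and Sin3A at 93.0% against 82.5% (2.70). For ING1 the gap between the groups was narrower but remained at 6 lists, at 79.3% of 58 sites against 91.4% of 443, unmatched for width. At 7 lists ING1 was listed at 100% of 6 sites against 98.0% of 49. Sin3A stood at 81.0% against 95.3% at 6 lists and at 66.7% against 93.9% at 7. LSD1 kept a wide gap, at 34.5% against 59.6% and 16.7% against 69.4%.

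**Figure D3:**
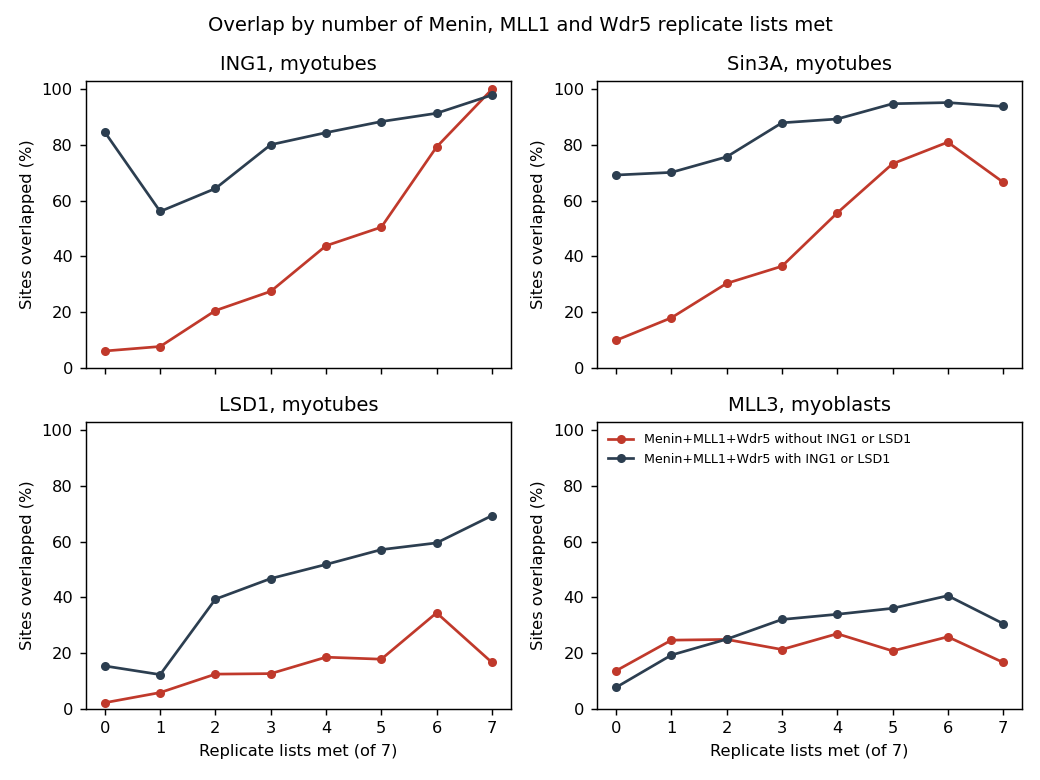
Share of Menin-MLL1-Wdr5 sites overlapped by each of the 4 lists (vertical axis, percent) against the number of Menin, MLL1 and Wdr5 replicate lists, of 7, that held the site. Among sites without ING1 or LSD1, ING1 in myotubes climbs from 6.01% to 100% and Sin3A from 9.84% to 81.0% at 6 lists, whereas MLL3 stays between 13.7% and 26.97%; the point at 7 lists holds 6 sites.

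The same split was made by the replicates of each factor. Sites in any Wdr5 replicate had ING1 in myotubes at 41.2% against 13.7% of the rest, an odds ratio within width classes of 3.73. For a peak in both Menin replicates the shares were 35.9% and 16.1% (1.80 within width), and for a peak in any MLL1 replicate 32.6% and 21.5% (1.51 within width). For Sin3A the odds ratios within width were 3.34 for Wdr5, 2.41 for Menin and 1.27 for MLL1. The splits differ in form (both Menin replicates, any of 2 for MLL1, any of 3 for Wdr5) and were not compared by a test.

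A small group of sites had ING1 in a myoblast replicate although the pooled ING1 list did not hold them. Replicate 1 of ING1 in myoblasts listed 2 of the 1323 sites (0.151%, background 0.461%) and replicate 2 listed 72 (5.44%, background 6.08%), 73 sites (5.52%) in all. Those backgrounds include Menin peaks with ING1 in the pooled list. Among Menin peaks that lack ING1 and LSD1 by the same rule, replicate 2 listed 1.34% with Wdr5 but no MLL1. It listed 0.560% with MLL1 but no Wdr5 and 0.0516% with neither, unmatched for width. These 73 had a median width of 2421 bp, against 1526.5 bp for the other 1250. ING1 in myotubes was listed at 55 of them (75.3%), Sin3A at 62 (84.9%) and LSD1 at 29 (39.7%), each below the share at the Menin-MLL1-Wdr5 sites with ING1 or LSD1 in the pooled lists. The other 1250 sites had 23.3%, 32.9% and 10.6%. MLL3 was listed at 12 of the 73 (16.4%) and at 22.9% of the rest.

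None of ING1, Sin3A and LSD1 was listed in myotubes at 727 sites (55.0%), against 4.25% of the Menin-MLL1-Wdr5 sites with ING1 or LSD1. Among Menin peaks that also lacked ING1 and LSD1 in myoblasts the share was 78.1% with Wdr5 alone, 81.7% with MLL1 alone and 93.7% with neither. Sin3A alone was listed at 177 (13.4%), ING1 with Sin3A at 188 (14.2%), ING1 alone at 70 (5.29%), LSD1 alone at 44 (3.33%) and all 3 at 79 (5.97%). At the Menin peaks with Wdr5 alone the shares in that order were 6.39%, 5.26%, 2.54%, 4.10% and 2.37%. LSD1 alone was thus less frequent at the sites, and it stood at 3.92% with MLL1 alone and 4.47% with neither. Shares of these combinations over all Menin peaks were not computed, and these values are not matched for width. At the sites with ING1 or LSD1 the leading combinations were all 3 (45.7%) and ING1 with Sin3A (32.5%). Where ING1 was listed in myotubes Sin3A was listed too at 77.2% of sites, and where it was not at 21.1%. The same pair gave 86.1% and 3.86% over all Menin peaks under the limit, and 72.7% and 8.20% at those with Wdr5 but no MLL1, ING1 or LSD1, so ING1 and Sin3A were listed together in general. LSD1 was listed at 25.4% of the sites with ING1 in myotubes and 7.47% of those without. MLL3 was listed at 22.0% of sites with ING1 in myotubes and 22.7% without, at 22.4% with Sin3A and 22.6% without, and at 27.3% with LSD1 of myotubes and 21.9% without.

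**Figure D4:**
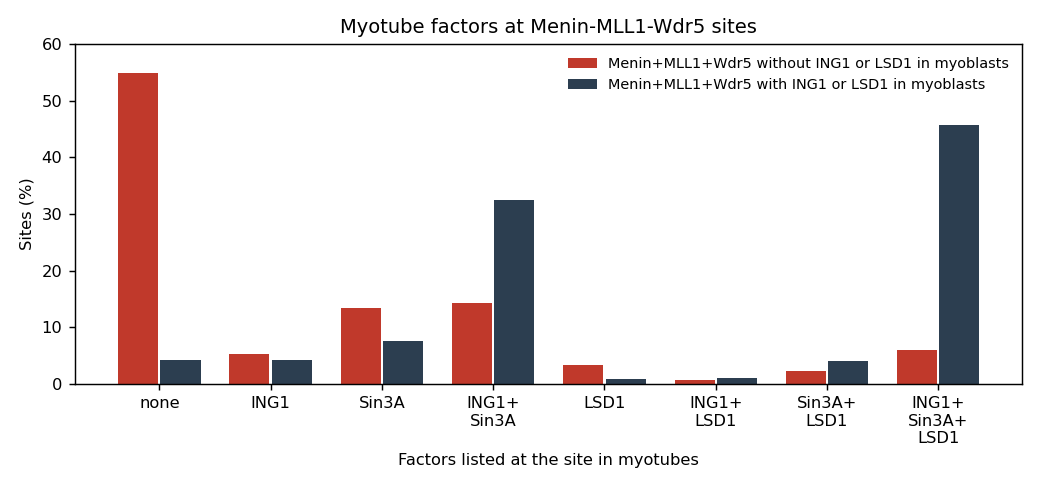
Share of Menin-MLL1-Wdr5 sites (vertical axis, percent) with each combination of ING1, Sin3A and LSD1 peaks in myotubes, for sites without and with ING1 or LSD1 in myoblasts. Sites with none of the 3 make up 55.0% of the first group and 4.25% of the second, and sites with all 3 make up 5.97% and 45.7%.

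The peaks outside the rule were centred on the sites, MLL3 excepted. ING1 of myotubes covered 13.3% of the Menin peak centres, and 5.22% and 1.44% of the positions at distances of 1 and 5 kb. Sin3A fell from 19.1% to 7.90% and 1.28% over the same distances, and LSD1 of myotubes from 5.29% to 2.99% and 1.81%. MLL3 covered 9.98% of the centres, 9.90% of positions at 1 kb and 12.2% at 10 kb, so it had no maximum at these sites. The Menin-MLL1-Wdr5 sites with ING1 or LSD1 had no MLL3 maximum either, at 10.0% of centres, 12.0% at 1 kb and 14.9% at 10 kb. At the Menin peaks with Wdr5 but no MLL1, ING1 or LSD1, MLL3 covered 17.1% of centres and 14.2% at 10 kb.

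**Figure D5:**
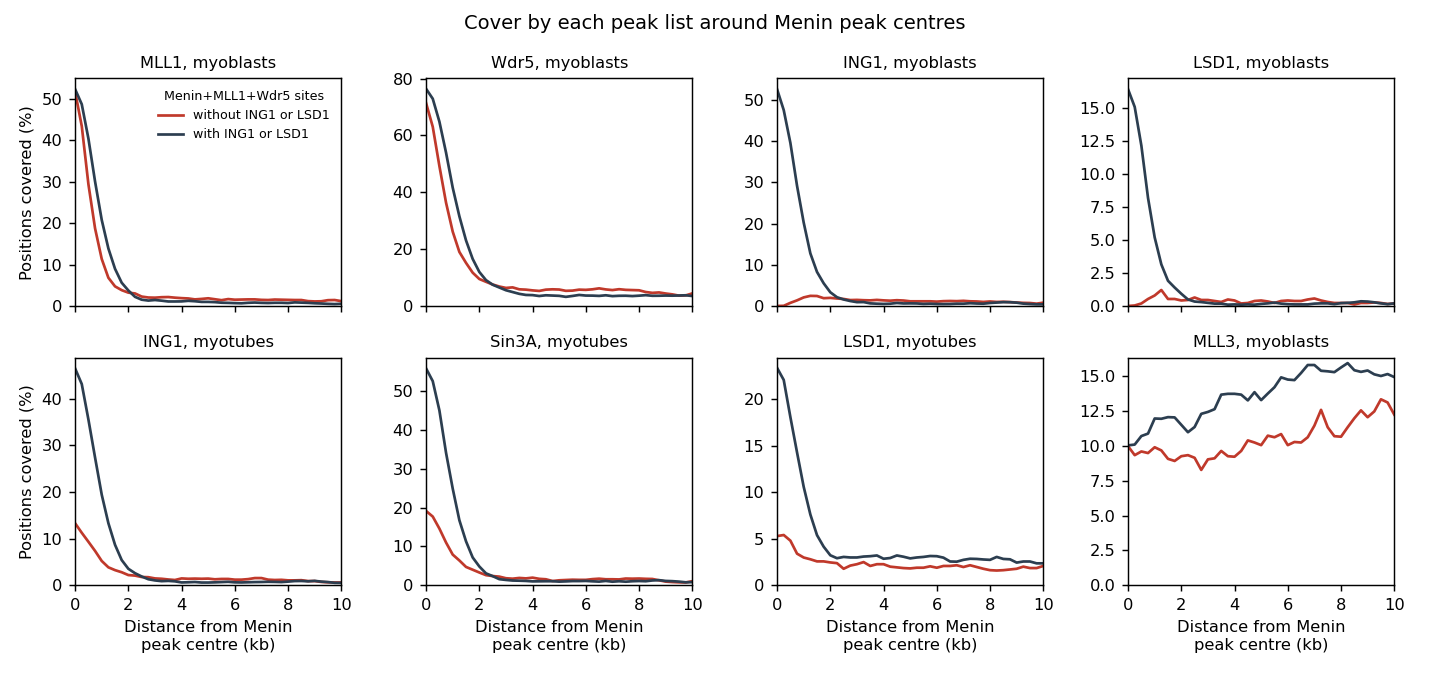
Share of positions covered by each of 8 peak lists (vertical axis, percent, with a scale of its own in each panel) at 0 to 10 kb from the centre of the Menin peak, for Menin-MLL1-Wdr5 sites without and with ING1 or LSD1 in myoblasts. At the sites without them, ING1 and Sin3A of myotubes fall from 13.3% and 19.1% at the centre to 1.44% and 1.28% at 5 kb, whereas MLL3 reads 9.98% at the centre and 12.2% at 10 kb; ING1 and LSD1 of myoblasts are at 0 at the centre because the rule excludes them.

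The nearest ING1 myoblast peak was a median of 51.2 kb away and the nearest LSD1 myoblast peak 105.7 kb, distances that the rule bears on because it removed every overlap. In the classes that lack both by the same rule, the medians to ING1 were 34.4 kb with Wdr5 but no MLL1, 35.8 kb with MLL1 but no Wdr5 and 28.0 kb with neither. Within 500 bp of an ING1 peak lay 6.80% of the sites, against 5.50%, 4.86% and 1.33% of those classes. Within 2 kb lay 11.9%, against 11.5%, 10.9% and 7.03%. Within 10 kb the order turned, at 22.9% of the sites against 25.8%, 26.9% and 26.1%. Within 500 bp of an LSD1 peak lay 2.65%. The smallest gaps were 48 bp to ING1 and 9 bp to LSD1. Sites with ING1 in myotubes were no nearer to a myoblast ING1 peak than the rest, at medians of 54.9 and 49.7 kb. The nearest Sin3A peak of myotubes was a median of 5.1 kb away and the nearest MLL3 peak 2.2 kb, against 1.1 kb over all Menin peaks.

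Most of the sites stood apart: 1169 of them had no other within 10 kb. The remaining 154 (11.6%) did, against 8.82% for the sites with ING1 or LSD1 among themselves. Within 500 bp of another lay 95 of the sites (7.18%). Within 500 bp of a Menin-MLL1-Wdr5 site with ING1 or LSD1 lay 85 (6.42%). There were 69 pairs, 4 runs of 3 and 1 run of 4. The run of 4 spanned 12.0 kb at chr11:117089020-117101017 and held 5 Menin, 6 MLL1, 4 Wdr5 and 1 ING1 myoblast peaks. Of its 4 sites 1 had ING1 and 2 had Sin3A in myotubes. The longest run of 3, chr12:88218937-88240021, spanned 21.1 kb with 9 Menin and 9 Wdr5 peaks, and 2 of its 3 sites had ING1 in myotubes. The runs of 3 at chr13:72761185-72777742 and chr12:74394971-74410495 had no ING1 or LSD1 peak of either state and no Sin3A peak in their spans. A Menin domain of 5000 bp or more lay within 10 kb of 4.61% of the sites, against 4.18% of all Menin peaks and 1.97% of the sites with ING1 or LSD1. The widest Menin domain, chr15:102772057-102820089 (48033 bp), had 2 of the sites on its left side, at gaps of 5184 and 3866 bp. The farther, chr15:102765270-102766872, had Sin3A over 42.3% of its length in myotubes, and the nearer, chr15:102766980-102768190, had LSD1 over 41.7%, and neither was in a Wdr5 replicate list.

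Single sites show the range. The 3 widest with all of ING1, Sin3A and LSD1 in myotubes were chr6:47541670-47546555, chr2:174150515-174155395 and chr1:108068306-108072777, from 4472 to 4886 bp. ING1 covered 35.4%, 21.6% and 28.4% of them, Sin3A 17.3%, 36.3% and 42.9%, and LSD1 7.67%, 11.4% and 22.4%. ING1 myoblast replicate 2 had a peak at chr6:47541670-47546555 and chr1:108068306-108072777, and chr2:174150515-174155395 lay 374 bp from an ING1 and 310 bp from an LSD1 myoblast peak.

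LSD1 of myotubes covered 100% of chr15:25580791-25585252 (4462 bp), which had neither ING1 nor Sin3A there, and of chr15:79908700-79909419 and chr11:3001086-3001342. The last, 257 bp wide, lay beside the first Menin peak of its chromosome, chr11:3000107-3000515, and 81.7% of it was also covered by MLL3. MLL3 covered 100% of chr15:97653124-97657657, chr8:47059668-47061834 and chr15:61942048-61943629. Of these, chr8:47059668-47061834 was in all 3 Wdr5 replicates, was covered wholly by Wdr5 and had Sin3A over 43.9%. The other two had no ING1, Sin3A or LSD1 in myotubes.

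The sites were found on every autosome. They numbered from 1.34 per 100 Menin peaks on chromosome 3 to 2.89 on chromosome 13, and as a share of the Menin-MLL1-Wdr5 sites from 26.6% on chromosome 3 to 43.0% on chromosome 15. The share with ING1 in myotubes ran from 14.8% on chromosome 3 to 40.3% on chromosome 9, and with Sin3A from 13.0% on chromosome 3 to 47.1% on chromosome 7. LSD1 ran from 5.56% on chromosome 14 to 19.3% on chromosome 10, and MLL3 from 13.2% on chromosome 1 to 34.3% on chromosome 15.

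The width limit of 5000 bp divided a continuous range. Just inside it were chr5:123792342-123797285 (4944 bp), chr7:130509730-130514658 (4929 bp) and chr4:58298562-58303489 (4928 bp), each with ING1 and Sin3A in myotubes. The chr5 site had a peak in ING1 myoblast replicate 2, and the chr7 site had none in an MLL1 or Wdr5 replicate. Just outside the limit were chr2:148229588-148234672 (5085 bp), with neither, chr16:31663346-31668439 (5094 bp), with Sin3A alone, and chr4:59205333-59210436 (5104 bp), with ING1 alone. The 54 sites of 4012 to 4944 bp had ING1 in myotubes at 35.2%, Sin3A at 40.7%, LSD1 at 27.8% and MLL3 at 42.6%. The 67 Menin peaks of 5085 to 16230 bp that met the rest of the rule had them at 25.4%, 37.3%, 20.9% and 49.3%.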

How the data were processed

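Members and lists were chosen with earlier results of these data known. The deposited values are peak boundaries in base pairs (chromosome, left and right end), per the file headers and values; they hold no score, fold or count, and the authors merged replicates into pooled lists, per the labels. Bowtie 0.12.9, SAMtools 0.1.19, bedtools 2.17.0 and the build mm9 come per the submitters' processing notes. How peaks were called, at which threshold, and how replicates were merged is not given in the sources used. Depth is therefore unknown, and list length moves every share.

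Intervals were taken as starting at 0 and are printed as starting at 1. Overlaps of 1 bp or more were computed in Python 3.11.15 with numpy 2.4.6, pandas 2.3.3 and scipy 1.17.1, checked against bedtools 2.31.1 and tested on simulated data. Groups came from sample titles and antibodies. Regions are not replicates, so classes were compared by shares, odds ratios, odds ratios within 10 width classes and the number of 19 chromosomes with the same direction. Only replicate lists entered an exact sign-flip permutation test.

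Named regions were the 6 members in most replicate lists, the 3 widest members and the 3 narrowest peaks beyond the limit, the 3 widest with all myotube factors, the 3 most covered by LSD1 of myotubes and by MLL3, and the 2 longest runs. The other runs and the sites beside the widest domain were chosen after their values were seen. Sequences, motifs and gene positions had also been planned and need an mm9 genome and were not done here. Input and RNA-seq samples are not analysed here. Alternatives covered the overlap, list length and width, replicate unions, each replicate left out, the width limit, chromosome X and nearby ING1 or LSD1 peaks.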

Additional observations from a re-analysis of the deposited data

Results flagged for a closer look

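Chromosome X was outside the comparisons above and entered only as an alternative. It held 22 Menin peaks that met the rest of the rule, of 1116 Menin peaks there, or 1.97 per 100, a rate near the 1.94% of the autosomes. It is listed because its peaks are in no comparison of the report, and no sample without antibody was analysed to set beside it.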

How the results depend on the processing

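Each odds ratio of the 1323 sites against the Menin-MLL1-Wdr5 sites with ING1 or LSD1 stayed under 1 under each of the 13 other settings that gave one, 52 of 52 values, and no result reversed. Of 112 recomputed values 69 stayed within 1.5 times the reported number of sites, or within the 95% interval of the reported share or odds ratio. The number of sites was 244 with every list except Menin cut to its 4419 widest peaks, and 513 with unions of replicate lists. It was 671 with Menin peaks found in both replicates and 281 with a replicate peak of each factor. This last setting and the one without sites in an ING1 myoblast replicate were chosen after seeing the data.

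With lists of equal length, Menin excepted, the odds ratios for ING1, Sin3A, LSD1 and MLL3 were 0.163, 0.184, 0.252 and 0.249. The shares of Sin3A, LSD1 and MLL3 were then 29.9%, 7.79% and 1.23%. With replicate unions the odds ratios for ING1, Sin3A and LSD1 were 0.118, 0.121 and 0.183, and the shares 9.16%, 47.6% and 20.3%. With Menin peaks in both replicates they were 0.102, 0.102 and 0.184, and the shares 35.9%, 49.0% and 17.6%. With a replicate peak of each factor they were 0.129, 0.113 and 0.165, and the shares 46.6%, 58.0% and 17.8%. With the wider 50% of each list they were 0.175, 0.182 and 0.261, and the shares of Sin3A and MLL3 were 43.8% and 16.5%. Within width classes the odds ratios for all 4 were 0.1001, 0.0857, 0.191 and 0.766. Without sites in an ING1 myoblast replicate the shares of ING1 and Sin3A were 23.3% and 32.9%. The MLL3 share was 17.8% at an overlap of 50% and 31.9% within 500 bp, where its odds ratio was 0.673. The cause of these shifts was not tested.

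Leaving out each replicate in turn from the unions, the number of sites ran from 40 (without MLL1 replicate 1) to 986 (without ING1 myoblast replicate 2). The share of ING1 ran from 5.26% (without ING1 myotube replicate 2) to 23.9% and its odds ratio from 0.0840 to 0.322. The share of Sin3A ran from 0.780% (without Sin3A replicate 1) to 65.2% and its odds ratio from 0.115 to 0.197. The share of LSD1 ran from 20.3% to 37.5% and its odds ratio from 0.183 to 0.331. The share of MLL3 ran from 14.8% to 22.8% and its odds ratio from 0.569 to 0.766. No paired analysis was possible because no test compared groups of samples that share replicate numbers; shares and odds ratios of regions carry no sample pairing. The lists give no depth, so a site without a listed peak may still be bound.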
